A study of Mus musculus with 6 samples.

Results

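The genes described are the collagens, laminins, tissue inhibitors of metalloproteinases (TIMPs) and matrix metalloproteinases (MMPs) of mouse liver. The rule that chose them uses gene symbols and no measured value, although these families were picked for description with earlier results of the data known. A probe counted where its annotation gave 1 symbol of the form Col, Lam, Timp or Mmp followed by the chain or family number. That rule found 75 probes for 74 genes among 16887 named genes, namely 40 collagens, 10 laminins, 4 TIMPs and 20 MMPs. Only Col14a1 had 2 probes, which were averaged.

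The study compared 2 lipid-lowering drugs in C57BL/6 mice on an HFC diet, which the sample names call a high-fat diet. Liver RNA of 6 mice, aged 7 weeks, was hybridised on 2-colour arrays, 1 mouse per array. All 6 mice ate the HFC diet for 12 days: 2 had the diet with vehicle, 2 were also dosed orally with lovastatin at 30 mg/kg from day 5, and 2 with fenofibrate at 100 mg/kg from day 5. The common reference on every array was 1 pool of liver RNA from 6 chow-fed C57BL/6 mice of the same age, which the design text says also received vehicle. Lovastatin inhibits the rate-limiting enzyme of cholesterol synthesis, while fenofibrate is an agonist of the nuclear receptor PPARα, which switches on fatty acid oxidation. The lovastatin arrays are grouped by their titles, although the treatment text attached to them names fenofibrate. HFC and lovastatin mice were labelled with the dye Cy5 and fenofibrate mice with Cy3, so a gene-specific dye effect and fenofibrate cannot be told apart. The pool also hides how much chow-fed mice vary.

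Each value is a ratio on a log scale, taken as log2, of the mouse over the chow pool. A value of 1 is therefore a doubling and a value below 0 means less signal than in the pool. This direction is likely rather than stated, from the order of the channels in the labels. On the arrays other than HFC replicate 2, fenofibrate included, the cholesterol synthesis genes Idi1, Msmo1 and Sqle lay at -4.83 to -4.08, -4.08 to -3.56 and -4.49 to -3.2. With the fenofibrate sign turned they would be high there and low elsewhere. A control spot read 4.83 and 4.95 on fenofibrate, and -4.2 or lower on HFC and lovastatin. Were the fenofibrate arrays to run the other way, every fenofibrate sign below would turn, and the dye-balanced means and their order would change with it. The table holds ratios without levels, so dim probes were not filtered, genes cannot be ranked by abundance, and the tissue label could not be checked against marker levels. In whole liver, fewer cells of a type and less RNA per cell cannot be told apart.

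The extracellular matrix is the protein scaffold around cells. Fibrillar collagens give it strength, basement membrane collagens and laminins form thin sheets, MMPs cut these proteins and TIMPs block MMPs. In healthy liver the space beside the sinusoids holds a sparse matrix, and in chronic injury stellate cells that become myofibroblasts deposit fibrillar collagen there.

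The arrays differed in quality. In HFC replicate 2, 50.3% of the probes used sit in 4 blocks of columns whose values were displaced. As deposited these blocks correlated with the mean of other arrays at -0.0337 to 0.0274. After each was rotated by a fixed number of spots they correlated at 0.294 to 0.308, and no other rotation gave more than 0.0443. Idi1, a cholesterol synthesis gene, moved from 0.07 to -4.27 in this array, beside -4.83 to -4.08 on the others. The displaced spots were left out here, which removed 39 of the 74 matrix genes from HFC replicate 2 and left 35, and values put back in place are named as such. Col26a1, which encodes an uncommon collagen, shows the size of the error: its HFC replicate 2 value was -5.98 as deposited and -0.34 put back. Lovastatin replicate 1 was much wider than the rest, with an SD over all probes of 1.09 beside 0.419 to 0.570 on the other arrays.

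No matrix gene passed the test in any of the 6 comparisons made, and the family as a whole stayed close to the chow pool. The median over the measured members was -0.06 and 0.08 on the HFC arrays, -0.12 and -0.01 on the lovastatin arrays, and -0.05 and -0.04 on the fenofibrate arrays. Single genes scattered widely around these medians, from -2.64 to 2.76 on lovastatin replicate 1 and from -1.09 to 2.37 on the other 5 arrays. The SD over members was 1.15 on lovastatin replicate 1 and 0.36 to 0.572 elsewhere. Across members, which are not independent replicates, the 2 arrays of a group correlated at 0.291 for HFC (35 genes), 0.132 for lovastatin (73 genes) and 0.374 for fenofibrate (74 genes). Over all features the same correlations were 0.246, 0.189 and 0.402.

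**Figure D1:**
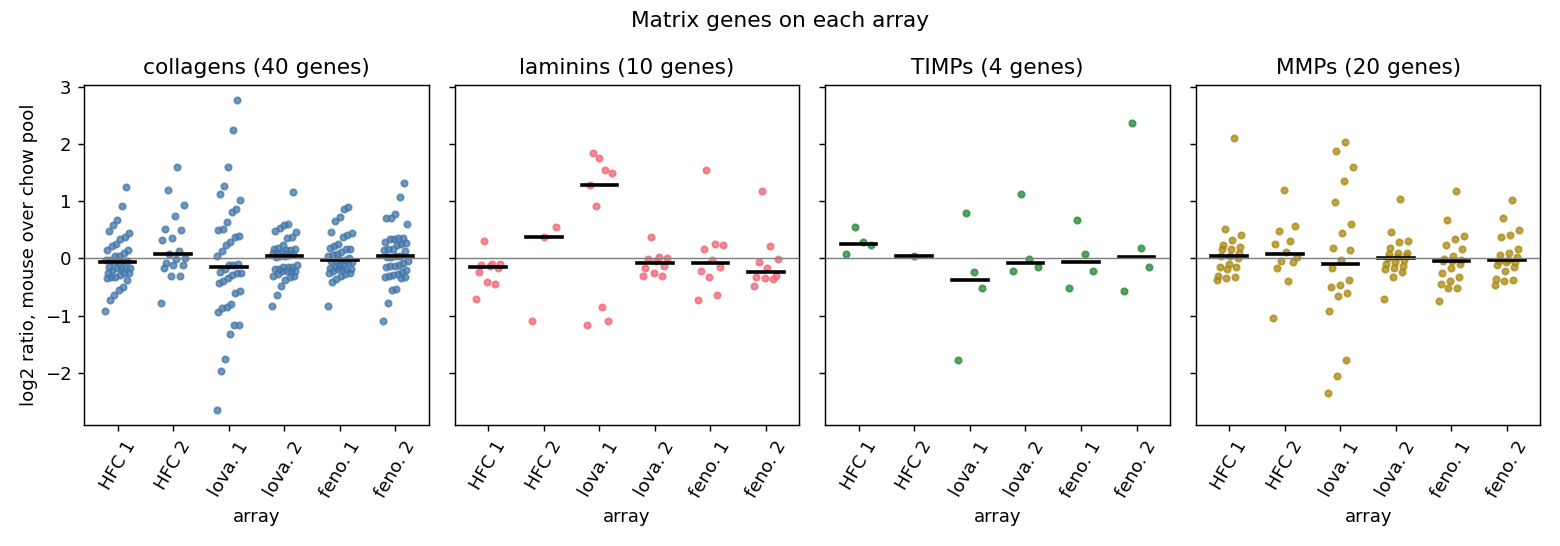
Log2 ratio of mouse over chow pool (vertical axis) for each matrix gene (points) on each of the 6 arrays, by family, with the median as a black bar; displaced spots of HFC replicate 2 are left out. Medians lie between -0.37 and 0.37 except for the laminins on lovastatin replicate 1, at 1.29, and this array has the widest scatter.

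The first question was how HFC-fed livers differed from chow-fed ones. Group means were tested with limma, which fits all features together, and calls were made at 0.05 on Benjamini-Hochberg p-values taken across the whole table. Besides each group alone, a dye-balanced mean was formed that weights HFC by 0.25, lovastatin by 0.25 and fenofibrate by 0.5, so that Cy5 and Cy3 count equally. It describes HFC feeding averaged over the 3 treatments. At the adjusted threshold 0 of 74 matrix genes passed in each comparison. Over all features the share called was 0% for HFC, 0% for lovastatin, 0.0616% for fenofibrate and 0.566% for the dye-balanced mean. At an unadjusted p under 0.05, 3 members passed for HFC (4.05%, beside 4.73% of all features) and 4 for lovastatin (5.41%, beside 10.6%). The same count was 4 for fenofibrate (5.41%, beside 7.63%) and 4 for the dye-balanced mean (5.41%, beside 10.8%). The shares of members lay below those of all features. The dye-balanced median over the members was -0.0031, with 36 above 0 and 38 below, beside 0.01 over all features.

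The precision limits what could be seen. The 95% interval of a member reached, in the median, 0.849 log2 units either side for HFC, 0.744 for lovastatin, 0.744 for fenofibrate and 0.471 for the dye-balanced mean. Single genes varied around these medians, since the interval depends on each gene's own spread.

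Among the members, the fibrillar collagen Col5a3 and the multiplexin collagen Col15a1 are shown by sequence, since they had the highest and the lowest dye-balanced mean of the genes that lay on one side of the pool on all 6 arrays. Below are the 250 bases upstream of their annotated starts, from the RefSeq promoter table on build GRCm38.p6, written 5′ to 3′ along the gene, with matches to 4 promoter motifs in capitals. The Col5a3 window is chr9:20815068-20815317, minus strand, and the Col15a1 window is chr4:47207762-47208011, plus strand.
Col5a3: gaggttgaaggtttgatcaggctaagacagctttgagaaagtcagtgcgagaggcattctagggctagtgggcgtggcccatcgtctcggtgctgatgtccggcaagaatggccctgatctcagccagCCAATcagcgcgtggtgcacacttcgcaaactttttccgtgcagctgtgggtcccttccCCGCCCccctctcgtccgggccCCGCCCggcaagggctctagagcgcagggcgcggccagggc
Col15a1: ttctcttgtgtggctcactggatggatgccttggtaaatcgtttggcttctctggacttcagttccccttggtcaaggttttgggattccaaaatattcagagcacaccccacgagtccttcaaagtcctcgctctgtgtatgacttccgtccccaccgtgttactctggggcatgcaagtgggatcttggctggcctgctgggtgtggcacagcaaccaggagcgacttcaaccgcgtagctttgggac
The motifs searched on both strands were the AP-1 site TGANTCA, the GC box GGGCGG, the CCAAT box CCAAT and the TATA box TATAAA. The Col5a3 window held 2 GC boxes, read as CCGCCC on this strand at -63 to -58 and -41 to -36 from the start, and a CCAAT box at -122 to -118. The Col15a1 window held none of the 4 in these letters. GC content was 62.8% in the Col5a3 window and 53.6% in the Col15a1 window, beside a median of 52.4% over all 32851 windows. The table matched 55 of the 74 members, with 62 windows. A GC box occurred in 48.4% of member windows and 32.7% of all windows, and member windows were also richer in GC, with a median of 57.8%. The AP-1 site was in 12.9% of member windows and 6.75% of all, the TATA box in 19.4% and 12.4%, and the CCAAT box in 30.6% and 33.8%. These matches are letters in a window and not measured binding.

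Col5a3 encodes a chain of type V collagen, a minor fibrillar collagen that joins type I fibrils. Its log2 ratios were 1.25 and 1.59 on the HFC arrays, 2.76 and 1.16 on the lovastatin arrays, and 0.86 and 0.78 on the fenofibrate arrays. All 6 arrays were above the pool, and the lowest of the HFC and lovastatin values exceeded the highest fenofibrate value. The group means were 1.42 ± 0.240 (SD, n = 2) for HFC, 1.96 ± 1.13 (SD, n = 2) for lovastatin and 0.82 ± 0.0566 (SD, n = 2) for fenofibrate. The dye-balanced mean of Col5a3 was 1.26 with a standard error of 0.238 and a 95% interval of 0.656 to 1.85. This did not pass after adjustment in limma (adjusted p = 0.139), though it was the smallest adjusted p of any member in that comparison. Col5a3 passed without lovastatin replicate 1 (mean 1.06, adjusted p = 0.0291) and without lovastatin replicate 2 (1.46, adjusted p = 0.0111), but not without either HFC array or either fenofibrate array (adjusted p 0.317 to 0.999). It also passed after quantile normalization (1.33, adjusted p = 0.0222) and with the noisiest 10% of features left out, a filter that 64 of the 74 members passed (adjusted p = 0.0444).

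Of the 34 members measured on all 6 arrays, Col5a3 was alone in lying above the pool on each, and Col15a1 and Mmp23 lay below it on each. Counting genes measured on at least 5 arrays, 2 members were above 0 on every one (2.7%), beside 7.23% of all features, and 2 were below 0 (2.7%), beside 7.12%. The added gene above 0 was Col19a1, which encodes a collagen that associates with fibrils, at 0.14 on HFC replicate 1, 2.25 and 0.09 on lovastatin, and 0.90 and 0.27 on fenofibrate. Put back, its HFC replicate 2 value was -0.47. Col15a1, whose collagen bridges basement membranes to the tissue below, was at -0.28 and -0.30 on HFC, -0.39 and -0.27 on lovastatin, and -0.12 and -0.53 on fenofibrate. The 3 groups overlapped, and the dye-balanced mean was -0.32 with an interval of -0.60 to -0.03 (limma adjusted p = 0.412). Mmp23, a membrane-anchored protease, was closer to the pool, with values from -0.61 to -0.03 and a dye-balanced mean of -0.15 (limma adjusted p = 0.747).

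**Figure D2:**
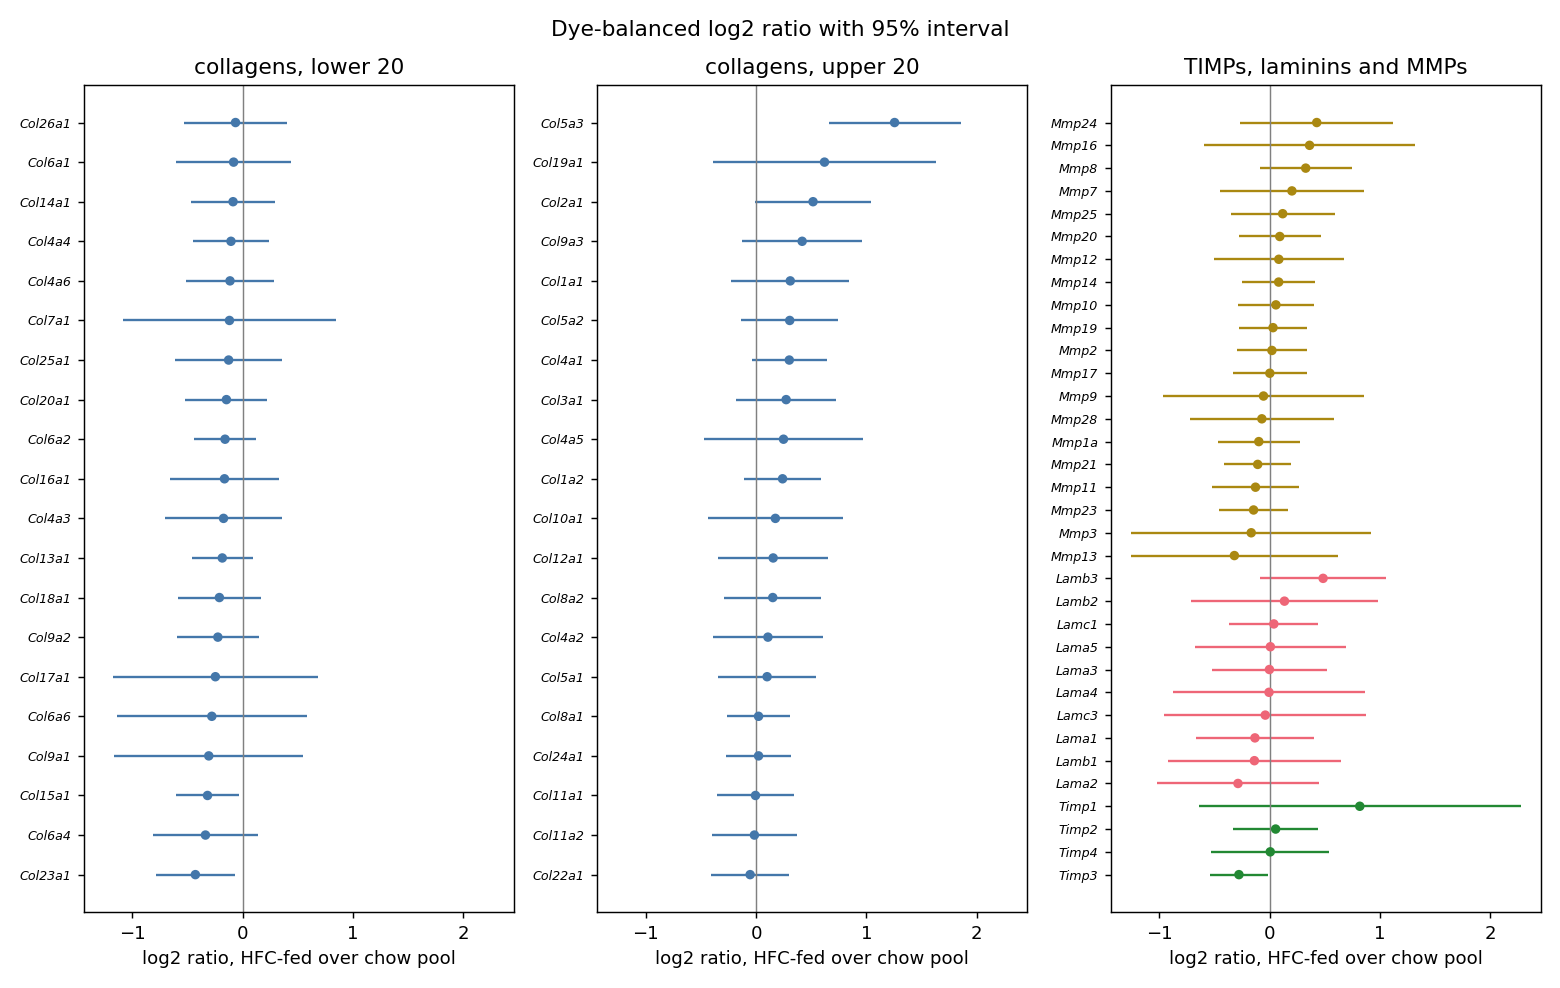
Dye-balanced log2 ratio of HFC-fed mice over the chow pool (points, horizontal axis) with 95% intervals (lines) for the 74 matrix genes, ordered within family; the middle and left panels show collagens (blue) and the right panel MMPs (gold), laminins (red) and TIMPs (green). Col5a3, at 1.26, is the member farthest from 0 with the arrays read as mouse over pool, and none passed after adjustment.

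The fibrillar collagens tended to the upper side, with 8 of 10 above 0 in the dye-balanced mean and a median of 0.26, and 0 of them passed. By array, 6 of 10 were above 0 on HFC replicate 1, 3 of 6 on HFC replicate 2, and 6 and 7 of 10 on lovastatin. On fenofibrate it was 5 of 10 on replicate 1 (median 0.025) and 8 of 10 on replicate 2 (median 0.475). The main chains of type I and type III collagen, the bulk of scar matrix, had values on both sides of the pool. Col1a1 was at -0.33 and 0.94 on HFC, 0.40 and 0.37 on lovastatin, and -0.05 and 0.60 on fenofibrate. The 2 HFC mice spanned the values of the other 4. Col1a2 was at 0.58 on HFC replicate 1 (-0.15 put back on replicate 2), 0.28 and 0.48 on lovastatin, and -0.14 and 0.14 on fenofibrate. Col3a1 was at 0.48 and -0.01 on HFC, -0.34 and 0.47 on lovastatin, and 0.08 and 0.71 on fenofibrate. Their dye-balanced means of 0.31, 0.24 and 0.27 had intervals that included 0, the highest bound being 0.846 for Col1a1. With HFC replicate 2 put back, the Col1a2 mean was 0.15.

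The dye-balanced means of the other collagen classes lay on different sides of the pool, but the single groups did not all share these sides. All 3 of the remaining network-forming collagens (Col8a1, Col8a2 and Col10a1) were above 0 in the dye-balanced mean (median 0.15), and 0 passed. Within groups, 2 of the 3 were above 0 on HFC (median 0.335), but 1 on lovastatin (median -0.225) and 1 on fenofibrate (median -0.01). Of 9 FACIT collagens, which sit on fibrils, 3 were above 0 and 6 below. All 4 beaded-filament collagens, the type VI chains that link cells to fibrils, were below 0 in the dye-balanced mean (median -0.22), and 0 of 4 passed. All 4 transmembrane collagens were below 0 as well (median -0.22), and again 0 passed. On fenofibrate alone, 2 of these were above 0 and 2 below (median 0.02). The lowest of all 74 members in the dye-balanced mean was Col23a1, a transmembrane collagen. It was at -0.26 and 0.01 on HFC, 0.05 and -0.22 on lovastatin, and -0.41 and -1.09 on fenofibrate. The fenofibrate values lay below those of the other 4 arrays, and the dye-balanced mean was -0.43 (limma adjusted p = 0.375). Of the 6 basement membrane collagens, 3 were above 0 and 3 below. Col4a1, whose gene sits beside Col4a2 on chromosome 8, was at 0.67 on HFC replicate 1 (0.56 put back on replicate 2), -0.12 and 0.09 on lovastatin, and 0.19 and 0.36 on fenofibrate. Its partner Col4a2 was at 0.05 (0.52 put back), -0.86 and 0.04, and 0.45 and 0.34 in the same order. Both were above the pool on HFC and fenofibrate arrays, and each was split on the lovastatin arrays. The multiplexin Col18a1, whose end fragment is endostatin, was at -0.49 on HFC replicate 1, -0.18 and -0.64 on lovastatin, and 0.04 and 0.02 on fenofibrate.

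Laminins are basement membrane proteins, each built of an alpha, a beta and a gamma chain, and 6 of them were high on 1 lovastatin array. On lovastatin replicate 1 the median of 9 measured laminins was 1.29, with 6 above 0. On lovastatin replicate 2 the median was -0.09, with 3 of 10 above 0, and on the other arrays it was -0.15, 0.37 (3 genes), -0.09 and -0.24. Lamb2, a beta chain, was at -0.10 on HFC replicate 1, 1.85 and 0.01 on lovastatin, and -0.22 and -0.07 on fenofibrate. Lama5, an alpha chain, was at -0.09, then 1.29 and -0.13, then -0.15 and -0.31 in that order. Lamb1, another beta chain, was at -0.23, then 1.49 and -0.17, then -0.64 and -0.34. In each of the 3 genes only lovastatin replicate 1 was more than 0.1 above the pool, with the displaced HFC replicate 2 left out. Put back, Lama5 reached 1.02 on that array, and Lamb1 and Lamb2 were at -0.33 and -0.18. The gamma chain Lamc1, shared by most laminins, ran the other way on lovastatin replicate 1, at -0.85, beside -0.13, 0.37, -0.04, 0.26 and 0.22 on the rest. Lama2 and Lamb3 were also below the pool on lovastatin replicate 1, at -1.16 and -1.10.

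**Figure D3:**
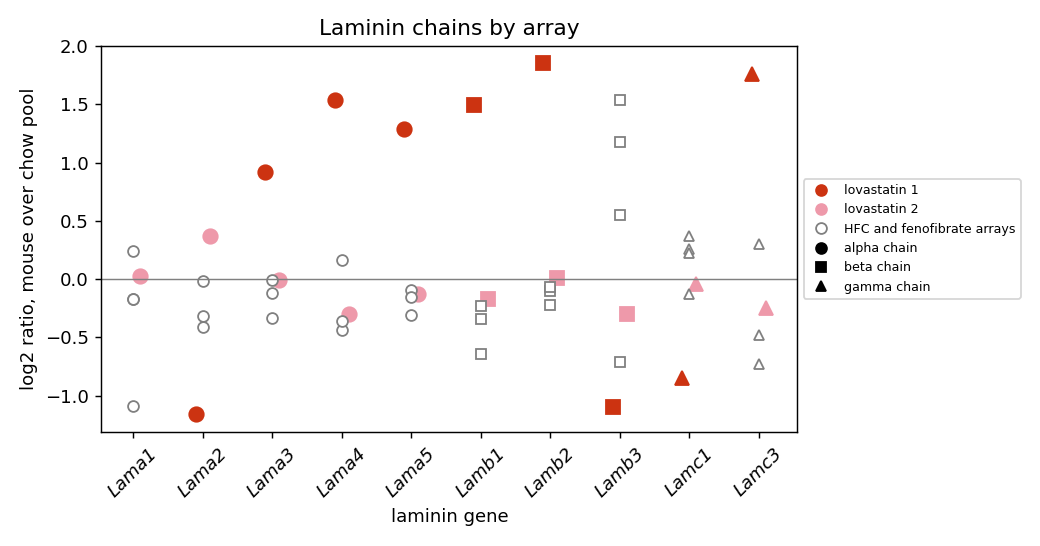
Log2 ratio of mouse over chow pool (vertical axis) for each laminin gene (horizontal axis) on lovastatin replicate 1 (dark red), lovastatin replicate 2 (pink) and the HFC and fenofibrate arrays (open grey); the shape gives the chain type. Of 9 laminins measured on lovastatin replicate 1, 6 lie above 0, while lovastatin replicate 2 stays between -0.30 and 0.37.

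The second question was what lovastatin added to the HFC diet. At the adjusted threshold 0 of 74 members passed against HFC, as did 0% of all features. At an unadjusted p under 0.05, 4 members passed (5.41%, beside 2% of all features): Mmp8, Mmp16, Col4a6 and Col8a2. For Mmp16 and Col8a2 this rested on 1 HFC array. Col8a2 was at 0.92 on HFC replicate 1 (1.17 put back on replicate 2), -0.60 and 0.03 on lovastatin, and -0.19 and 0.16 on fenofibrate. Among the 34 members measured on all 4 arrays, 10 had groups that did not overlap (29.4%, beside 31% of all features). The members' median difference was -0.01, beside -0.02 over all features, and the median 95% interval reached 1.16 either side. Without HFC replicate 1, which leaves the 35 members outside the displaced columns, the median difference was -0.26. Lovastatin replicate 1 decided much of this comparison. Without lovastatin replicate 2, so that replicate 1 stood alone and was assumed to vary like the other groups, 4 members passed against HFC (Mmp9, Lamb2, Mmp7 and Col6a6), or 5.48%, beside 7.37% of all features. Against the pool 19 of 73 members then passed (26.0%, beside 21.1%). Without lovastatin replicate 1, 0 members passed in either.

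Mmp8, the neutrophil collagenase, had the highest lovastatin mean against the pool after Col5a3. It was at 0.41 and -0.04 on HFC, 1.36 and 1.03 on lovastatin, and -0.45 and 0.38 on fenofibrate. Both lovastatin arrays were above the other 4. The lovastatin mean was 1.20 against the pool (limma adjusted p = 0.410) and 1.01 above HFC, with an interval of 0.05 to 1.97 (limma adjusted p = 0.972). Neutrophil markers, as a list of 7, had medians of -0.03 and 0.08 on these 2 lovastatin arrays and -0.14 to 0.11 on the HFC arrays. The list was split on lovastatin replicate 1, where 3 were above 0 and values ran from -1.50 for Mpo to 1.24 for Camp. On lovastatin replicate 2, 5 were above 0, with Camp at 0.62. Mmp7, or matrilysin, was at 0.33 and 0.57 on HFC, 1.88 and 0.08 on lovastatin, and -0.26 and -0.36 on fenofibrate. The gelatinase Mmp9 was at 2.04 and 0.04 on lovastatin and below the pool on HFC replicate 1 (-0.34) and both fenofibrate arrays (-0.52 and -0.40). For Mmp7 and Mmp9 the high value came from lovastatin replicate 1.

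In the other direction, Mmp16, a membrane-type MMP, had the most negative difference of lovastatin from HFC, -3.49 (limma adjusted p = 0.972). It rested on 1 HFC array at 2.11, with lovastatin at -2.05 and -0.71 and fenofibrate at 1.18 and -0.46. Put back, HFC replicate 2 was 0.52 and the difference -2.70. Col4a6, a basement membrane collagen, was at 0.22 and 0.74 on HFC, -0.94 and -0.21 on lovastatin, and -0.31 and -0.05 on fenofibrate. Both HFC arrays were above the pool and the other 4 below it, and the lovastatin difference was -1.06 (limma adjusted p = 0.972). Col6a6, a type VI chain, was at -2.64 and -0.83 on lovastatin, beside -0.16 on HFC replicate 1 and 0.65 and 0.13 on fenofibrate. Put back, it was 0.70 on HFC replicate 2.

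The third question was what fenofibrate added. Here too 0 of 74 members passed against HFC, as did 0% of all features. At an unadjusted p under 0.05, 2 members passed (2.7%, beside 2.88% of all features). Among the 35 members measured on all 4 arrays, 18 had groups that did not overlap (51.4%, beside 39.5%). These comparisons also hold the change of dye, which cannot be told apart from fenofibrate. The 2 members under the unadjusted threshold were Lamb3 and Timp3.

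Lamb3 encodes the beta chain of an epithelial laminin. It was at -0.71 and 0.55 on HFC, -1.10 and -0.30 on lovastatin, and 1.54 and 1.18 on fenofibrate. Both fenofibrate arrays were above all the others. The fenofibrate mean was 1.36 ± 0.255 (SD, n = 2) against the pool (limma adjusted p = 0.471) and 1.44 above HFC, with an interval of 0.13 to 2.75 (limma adjusted p = 1). Lama3, the alpha chain of the same laminin, was at -0.33 and -0.01 on fenofibrate, and Lamc3, a gamma chain, at -0.73 and -0.48.

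The TIMPs differed among themselves on fenofibrate. Timp3, which is held in the matrix and also blocks ADAM proteases, was at 0.28 and 0.04 on HFC, -0.23 and -0.15 on lovastatin, and -0.52 and -0.56 on fenofibrate. The 3 groups did not overlap. The fenofibrate mean of Timp3 was -0.54 ± 0.0283 (SD, n = 2) against the pool (limma adjusted p = 0.546) and -0.70 against HFC, with an interval of -1.31 to -0.09 (limma adjusted p = 1). Timp1, the soluble inhibitor often raised in injured liver, was at 0.55 on HFC replicate 1 (0.96 put back on replicate 2), -1.77 and 1.13 on lovastatin, and 0.67 and 2.37 on fenofibrate. It was above the pool on every measured array but lovastatin replicate 1. The spread within the lovastatin and fenofibrate groups was wide, and the dye-balanced mean of 0.82 had an interval of -0.64 to 2.28. Timp2, which also takes part in activating Mmp2, stayed between -0.51 and 0.23, and Timp4 ranged from -0.21 to 0.80.

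**Figure D4:**
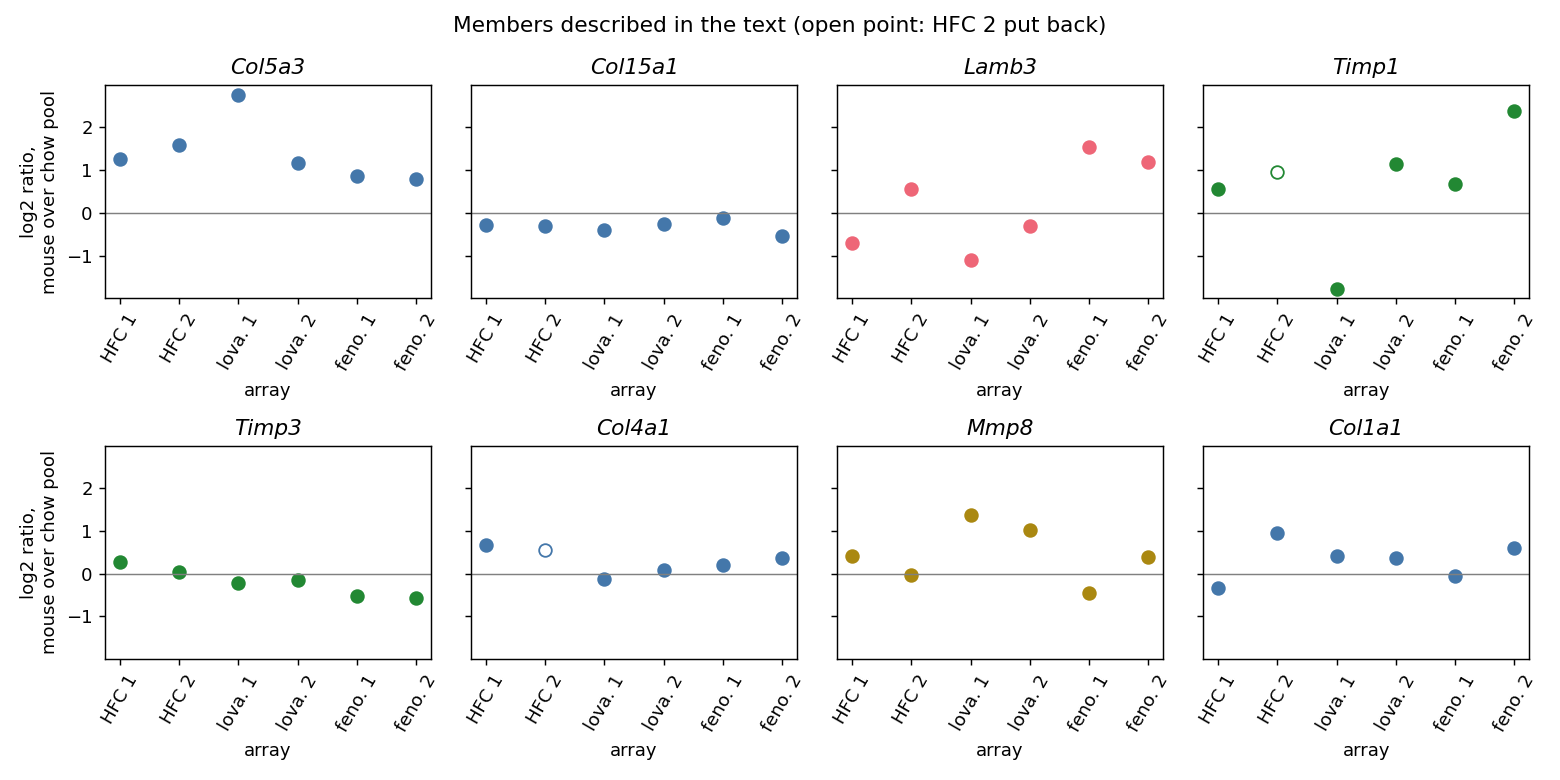
Log2 ratio of mouse over chow pool (vertical axis) on each of the 6 arrays for 8 members, coloured by family; an open point is the HFC replicate 2 value after its displaced block was put back. Col5a3 is above 0 on all 6 arrays and Col15a1 below 0, Lamb3 is highest on both fenofibrate arrays, and Timp1 runs from -1.77 to 2.37.

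After Timp1 and Lamb3, the highest fenofibrate means among members with both arrays on the same side were those of Col2a1, Col9a3 and Col5a3. Col2a1, the main cartilage collagen, was at 0.34 and -0.77 on HFC, 0.87 and 0.11 on lovastatin, and 0.72 and 1.07 on fenofibrate, where the mean was 0.90 against the pool (limma adjusted p = 0.640). Col9a3, a chain of type IX collagen, was at -0.32 and 0.13 on HFC, -0.56 and 0.53 on lovastatin, and 0.46 and 1.32 on fenofibrate. The fenofibrate arrays were above the HFC arrays in both genes. The partner chains Col9a1 and Col9a2 were at -0.83 and 0.34, and at -0.10 and -0.34, on fenofibrate. Col12a1, a collagen on the surface of type I fibrils, was at 0.45 and 1.19 on HFC, 0.63 and -0.37 on lovastatin, and -0.36 and 0.03 on fenofibrate. Its difference of fenofibrate from HFC was -0.99 (limma adjusted p = 1).

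Among the remaining proteases, the dye-balanced median of the 20 MMPs was 0.03, with 12 above 0. All 5 membrane-type MMPs were above 0 (median 0.12), Mmp17 by only 0.0025, and 0 passed. With HFC replicate 2 put back, the Mmp17 mean was -0.006. By array, 3 of 5 were above 0 on HFC replicate 1, on each lovastatin array and on fenofibrate replicate 1. On HFC replicate 2 it was 2 of 2, and on fenofibrate replicate 2 it was 1 of 5 (median -0.07). Mmp14, the membrane-type enzyme that activates Mmp2, was at 0.17 on HFC replicate 1, 0.45 and 0.31 on lovastatin, and -0.17 and -0.05 on fenofibrate. Put back, HFC replicate 2 was at -0.03. Mmp2, a gelatinase made by mesenchymal cells, stayed between -0.40 and 0.19 on all 6 arrays. Mmp12, the macrophage elastase, was at 0.17 and -1.04 on HFC, -0.16 and -0.32 on lovastatin, and -0.01 and 1.02 on fenofibrate. Mmp13, the main interstitial collagenase of mouse, ran from -1.77 on lovastatin replicate 1 to 0.41 on fenofibrate replicate 2. A cluster of 8 MMP genes on chromosome 9 (Mmp13, Mmp12, Mmp3, Mmp1a, Mmp10, Mmp8, Mmp20 and Mmp7) kept no direction across the arrays, with medians between -0.29 and 0.29. On fenofibrate replicate 1 only 1 of the 8 was above 0, and on fenofibrate replicate 2 it was 5.

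Genes that work with these proteins were taken from lists of biological roles, and are described in the dye-balanced mean, where 0.566% of all features passed. Of 21 genes of collagen processing and cross-linking, 13 were above 0, 8 below and 0 passed. P4ha2, a subunit of the enzyme that hydroxylates collagen prolines, was at 0.40 and Lox, the cross-linking enzyme, at 0.79 (limma adjusted p = 0.361 and 0.503). Pcolce, of the same list, was below the pool on all 6 arrays. It was at -0.25 and -0.09 on HFC, -0.45 and -0.38 on lovastatin, and -0.30 and -0.47 on fenofibrate. Of 28 other matrix glycoproteins and proteoglycans, 10 were above 0, 18 below and 0 passed. Nid1, or nidogen, which ties laminin to type IV collagen, was at 0.61 and 0.67 on HFC, 0.80 and 0.44 on lovastatin, and 0.73 and 0.82 on fenofibrate. All 6 arrays were above the pool, and its mean of 0.70 had a limma adjusted p of 0.0948. Ecm1, a secreted matrix glycoprotein of liver, was at -0.64 and Efemp1, a fibulin, at -0.66 (limma adjusted p = 0.182 and 0.185).

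Of 25 other matrix proteases and inhibitors, 9 were above 0, 16 below and 0 passed. Plg, plasminogen made by hepatocytes, was at -0.48 and Serpinf2, the plasmin inhibitor, at -0.81 (limma adjusted p = 0.192 and 0.182). Adamts7 had the highest dye-balanced mean of this list and lay above the pool on every measured array. It was at 1.56 on HFC replicate 1 (0.76 put back on replicate 2), 2.25 and 0.83 on lovastatin, and 0.95 and 1.14 on fenofibrate. Of 25 integrins and matrix receptors, 11 were above 0, 14 below and 0 passed. Itgb3, the integrin beta 3 chain that binds vitronectin, was at 0.27 and 0.26 on HFC, -0.24 and 0.11 on lovastatin, and -0.96 and -0.98 on fenofibrate. Vtn, vitronectin itself, was at 0.05 and -0.25, then 0.17 and 0.23, then -1.23 and -0.92 in the same order. In both genes the fenofibrate arrays lay below the other 4, and against HFC the differences were -1.24 and -0.98 (limma adjusted p = 1 for each).

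Of 25 genes of TGF-beta and PDGF signalling, the main fibrogenic signals of liver, 10 were above 0, 15 below and 0 passed. Ccn2, also called connective tissue growth factor and a target of TGF-beta, was at -0.32 on HFC replicate 1, -0.99 and -1.27 on lovastatin, and -1.50 and -1.47 on fenofibrate. All 5 measured arrays were below the pool, with the drug-treated mice lowest. Its dye-balanced mean of -1.11 had a limma adjusted p of 0.0752. Put back, HFC replicate 2 was above the pool, at 0.36, and the mean of -1.02 then passed (limma adjusted p = 0.0481). Bmp7, a signal that opposes TGF-beta, was at 1.14 (limma adjusted p = 0.219).

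Markers of the liver's cell types were read from the same ratios. Of 10 stellate cell and myofibroblast markers 3 were above 0 and 7 below, of 9 sinusoidal endothelium markers 4 and 5, of 9 Kupffer cell and macrophage markers 3 and 6, and of 7 neutrophil markers 5 and 2, with 0 passing in each list. By array, the stellate cell median was 0.02 and 0.15 on HFC, 0.20 and 0.02 on lovastatin, and -0.35 and -0.44 on fenofibrate. On fenofibrate 2 of the 10 stellate cell markers were above 0 on each array, and the macrophage medians there were -0.29 and -0.33. All 7 hepatocyte markers were below 0 (median -0.66, none passing), with medians by array from -0.80 to -0.34. Of 6 bile duct markers 5 were above 0 (median 0.04), and Krt23 (2.47, limma adjusted p = 0.0270) and Prom1 (1.83, limma adjusted p = 0.0340) passed and were higher. This list was chosen with earlier results of these data known. With either fenofibrate array left out 0 of all features passed in the dye-balanced mean, so both calls then ended. The same holds with the sign of these arrays turned, where again 0 features passed. The other 4 bile duct markers did not pass, among them Krt19 at 0.04 and Sox9 at -0.27. The part of these cell types in the matrix values was not tested.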

How the data were processed

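Each array compared liver RNA of 1 mouse with the chow pool. The deposited table gives 1 value per spot, made by the authors and read here as a log2 ratio. How the values were normalized, their log base and their direction were not given in the sources used here. Of 22575 spots, 726 had no value and 561 repeated control spots were left out. Of the 21288 probes used, 18658 have 1 gene symbol, 30 several and 2600 none in the platform annotation. Probes of a gene were averaged (1247 genes), giving 19517 features. Displaced spots of HFC replicate 2 (10703 probes) were set to missing, so such genes have 1 HFC value. All 74 members matched the RefSeq gene table. Groups came from titles, since the treatment text of the lovastatin samples conflicts. Replicates are separate mice per the labels.

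Group means were fitted with limma 3.58.1 (statmod 1.5.0, R 4.3.3) over all 6 arrays, and the script was tested on simulated data. Members and lists were chosen with earlier results of these data known. Named genes were those past the threshold, up to 5 highest and lowest per group or dye-balanced mean with all arrays on one side, 3 per drug against HFC without overlap, a fixed set of well-known members, and up to 4 genes of smallest p per list. Not every gene this rule chose is described. For HFC, and for a drug against HFC, it could choose only members outside the displaced columns. Lama2, Lama3, Timp4, Col8a2, Col9a1 and Mmp17 fall outside the rule and were given values after these were seen. Of them, Lama3, Timp4 and Col9a1 were named as partners of genes within the rule. Python 3.11.15, numpy 2.4.6, pandas 2.3.3 and matplotlib 3.10.9 prepared data and figures.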

Additional observations from a re-analysis of the deposited data

How the results depend on the processing

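The count of matrix genes past the threshold was 0 in all 6 comparisons as reported. It stayed at 0 with displaced spots kept as deposited, with the blocks put back, with median centring, single probes, a robust prior and fits on the compared arrays alone, and, in the 3 comparisons that use them, with fenofibrate signs turned. The compared arrays alone give no dye-balanced mean. For the dye-balanced mean it was 1 with quantile normalization and 1 with the noisiest 10% of features left out, Col5a3 both times. When 1 array was left out in turn, the count ranged from 0 to 1 for the dye-balanced mean, from 0 to 19 for lovastatin against the pool and from 0 to 4 for lovastatin against HFC, and it was 0 throughout for the other 3 comparisons. Same-numbered arrays of different groups did not deviate together (correlations -0.0198 to 0.0407), so they share only a number. With that number as a replicate block the count was 0 in each comparison, and the features called in the dye-balanced mean went from 110 to 0. That feature count was 67 as deposited, 191 with the blocks put back, 196 with quantile normalization, 346 with the noisiest features left out, 0 with the fenofibrate sign turned, and 0 to 966 with 1 array left out. For fenofibrate against the pool it was 12 as reported, 32 put back, 99 with the noisiest features left out, 0 with single probes, a robust prior, the block or the compared arrays alone, and 0 to 26 with 1 array left out. Fenofibrate against HFC gave 0, and 37 with the sign turned. For HFC against the pool, 0 as reported became 5 put back, 9 with quantile normalization 20 with the noisiest left out and 6 without either lovastatin array; for lovastatin against the pool, 0 became 2, 4 and 44. Without lovastatin replicate 2, lovastatin gave 4016 features against the pool and 1401 against HFC, each 0 as reported. The cause was not tested. The members' median for HFC against the pool, -0.05 as reported, was 0.06 as deposited and 0.08 without HFC replicate 1. For lovastatin against HFC it went from -0.01 to -0.26 without HFC replicate 1, and for fenofibrate against the pool from -0.02 to between -0.05 and -0.04 with quantile normalization or without either fenofibrate array. Of the dye-balanced values of named members under other settings, 415 kept their direction and side of the threshold or moved within the replicate spread, 3 passed newly (Col5a3) and 2 moved more (Mmp16 and Mmp12, each without 1 fenofibrate array). With 2 arrays per group and no intensities used, signal over background could not limit which probes were read.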
